A study of Mus musculus with 48 samples.

Results

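Expression of the IgG Fc receptors and of their shared signalling chain was followed through 48 RNA-seq libraries from mouse brain. The members were the rows of the deposited expression table named Fcer1g, Fcgr1, Fcgr2b, Fcgr3 or Fcgr4. The table held 4 of these 5 genes among 16014, and Fcgr4 was not analysed here. All 4 genes passed a filter on low values, which asked for at least 0.2 RPKM (reads scaled to the length of the transcript and the depth of the library) in at least 4 libraries.

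The libraries came from C57BL/6 mice in 4 groups, named 5xFAD + PLX5622, 5xFAD, PLX5622 and wild-type. 5xFAD mice carry human transgenes with familial Alzheimer's disease mutations, among them APP, under the neuronal Thy1 promoter and develop amyloid plaques. PLX5622 is an inhibitor of CSF1R, a receptor on which microglia depend for survival, and was given in chow at 1200 ppm between 1.5 and 7 months of age, while the 5xFAD and wild-type groups received control chow. Cortex, hippocampus and thalamus were sampled at 7 months, with 4 libraries for each of the 12 combinations, and the samples called thalamus also took in striatum. The labels do not say which regions shared an animal, nor the sex of the animals.

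Fc gamma receptors bind the constant part of IgG on the surface of myeloid cells, and in the brain they are found mainly on microglia. Fcgr1 (high affinity) and Fcgr3 (low affinity) are activating receptors that signal through the chain encoded by Fcer1g, whose tail carries an immunoreceptor tyrosine-based activation motif (ITAM) and which is also needed to bring these receptors to the cell surface. Fcgr2b is the inhibitory receptor, with an inhibitory motif (ITIM) in its own tail that recruits phosphatases, and the balance between the activating and inhibitory receptors sets how strongly a cell answers an immune complex.

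Fcer1g (Entrez 14127) lies at chr1:171229572-171234349, Fcgr2b (Entrez 14130) at chr1:170960558-170976071 and Fcgr3 (Entrez 14131) at chr1:171051169-171065915. Fcgr1 (Entrez 14129) lies at chr3:96282909-96293969. All 4 genes are on the minus strand of GRCm38.p6, and 3 of them lie close together on chromosome 1. Fcgr2b and Fcgr3 share sequence. Of 1733 windows of 50 bases in the Fcgr3 transcripts, the length of the reads, 166 (9.58%) also occur in Fcgr2b, and these make up 2.92% of the 5685 windows of Fcgr2b. Counting every other gene, 395 windows of Fcgr2b (6.95%) occur elsewhere, in 146 genes. How reads matching several genes were counted is not given in the sources used here. No window of Fcer1g or Fcgr1 occurs in another gene.

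The 250 bases before each start site are shown, from RefSeq for GRCm38.p6 and written 5′ to 3′ on the minus strand. Whether these sequences bear on the levels of the genes was not tested. Capitals mark matches to GAGGAA, the core bound by the myeloid factor PU.1 (gene Spi1), or to TTCCTC, the same core on the other strand, and the 2 motifs do not overlap.
Fcer1g, chr1:171234350-171234599: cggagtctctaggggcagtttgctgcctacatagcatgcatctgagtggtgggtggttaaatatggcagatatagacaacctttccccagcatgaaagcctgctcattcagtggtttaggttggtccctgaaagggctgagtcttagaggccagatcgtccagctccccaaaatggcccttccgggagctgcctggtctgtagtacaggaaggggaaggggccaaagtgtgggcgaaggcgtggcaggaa
Fcgr1, chr3:96293970-96294219: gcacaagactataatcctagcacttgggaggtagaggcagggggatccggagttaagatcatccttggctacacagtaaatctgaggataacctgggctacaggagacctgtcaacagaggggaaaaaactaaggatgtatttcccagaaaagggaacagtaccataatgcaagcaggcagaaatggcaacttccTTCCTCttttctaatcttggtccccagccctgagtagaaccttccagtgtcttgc
Fcgr3, chr1:171059404-171059653: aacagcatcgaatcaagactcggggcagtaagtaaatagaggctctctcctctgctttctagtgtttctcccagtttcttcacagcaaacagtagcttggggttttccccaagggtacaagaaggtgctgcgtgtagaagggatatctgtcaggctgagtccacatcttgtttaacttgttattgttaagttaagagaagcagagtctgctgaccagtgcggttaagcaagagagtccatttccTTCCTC
Fcgr2b, chr1:170976072-170976321: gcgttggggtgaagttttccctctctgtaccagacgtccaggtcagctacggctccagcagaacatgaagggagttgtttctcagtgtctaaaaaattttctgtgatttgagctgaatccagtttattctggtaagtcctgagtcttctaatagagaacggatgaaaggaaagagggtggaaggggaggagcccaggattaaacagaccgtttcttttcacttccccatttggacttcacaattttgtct
Fcgr1 and Fcgr3, the activating receptors, each held 1 match, on the other strand. It began 55 bases before the start of Fcgr1 and 6 bases before the start of Fcgr3, for which RefSeq gives another start site that places it 15 bases upstream. These start sites of Fcgr3 lie inside the span given above for the gene, which reaches to 171065915. The Fcgr3 window is therefore within that span, while the other windows begin just past the end of their genes. Sequence before the far end of the Fcgr3 span is not shown. In both promoters it lies in the 10-base run ttccttcctc, which 74 of 32851 promoters of this length hold (0.225%). Such rarity was not particular to this pair. Fcer1g shares the 9-base run ctgagtctt with Fcgr2b (62 promoters, 0.189%) and ggctgagtc with Fcgr3 (78 promoters, 0.237%). The 8-base runs of the remaining pairs are in 0.694% to 1.43% of promoters. The windows of Fcer1g and Fcgr2b held no match, and 7639 of the 32851 promoters (23.3%) held at least 1.

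Reads counted in the genes of the table, recovered from the steps of the RPKM values, summed to between 6198483 and 16032965 per library, with a median of 10953864. Reads outside these genes are not included. The genotype labels were checked on the transgenes, whose reads the table counts with the mouse genes. App was at 686 to 1089 RPKM in the 5xFAD-genotype libraries of cortex, against 459 to 518 RPKM in those of wild-type genotype. App and Thy1 were each higher in all 8 libraries of 5xFAD genotype than in any of wild-type genotype in cortex and hippocampus, and in 7 of 8 in thalamus. In 3 hippocampal libraries the summed markers of hippocampus were low and those of cortex high. The hippocampal sums were 24.8 RPKM in 5xFAD + PLX5622 replicate 1, 15.2 in 5xFAD replicate 4 and 22.2 in wild-type replicate 2, and the cortical sums were 187, 152 and 212 RPKM. The other 13 hippocampal libraries had hippocampal sums of 48.2 to 117 RPKM, and the 16 cortical libraries had 7.05 to 29.7 RPKM. In addition, the liver transcript Alb reached 634 and 112 RPKM in replicates 3 and 4 of 5xFAD + PLX5622 hippocampus, and at most 39.4 RPKM in every other library. That 39.4 RPKM was in PLX5622 hippocampus replicate 4. The libraries of its group had 3.87 to 39.4 RPKM of Alb, against 0.719 to 3.63 in wild-type and 1.74 to 8.64 in 5xFAD hippocampus. Below, replicates 3 and 4 of 5xFAD + PLX5622 hippocampus are called the libraries with liver transcripts, as Alb was highest there. Several results for hippocampus are therefore also given without them or without the 3 libraries with cortex-like markers. Those that set a member against other genes of the same library are not.

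**Figure D1:**
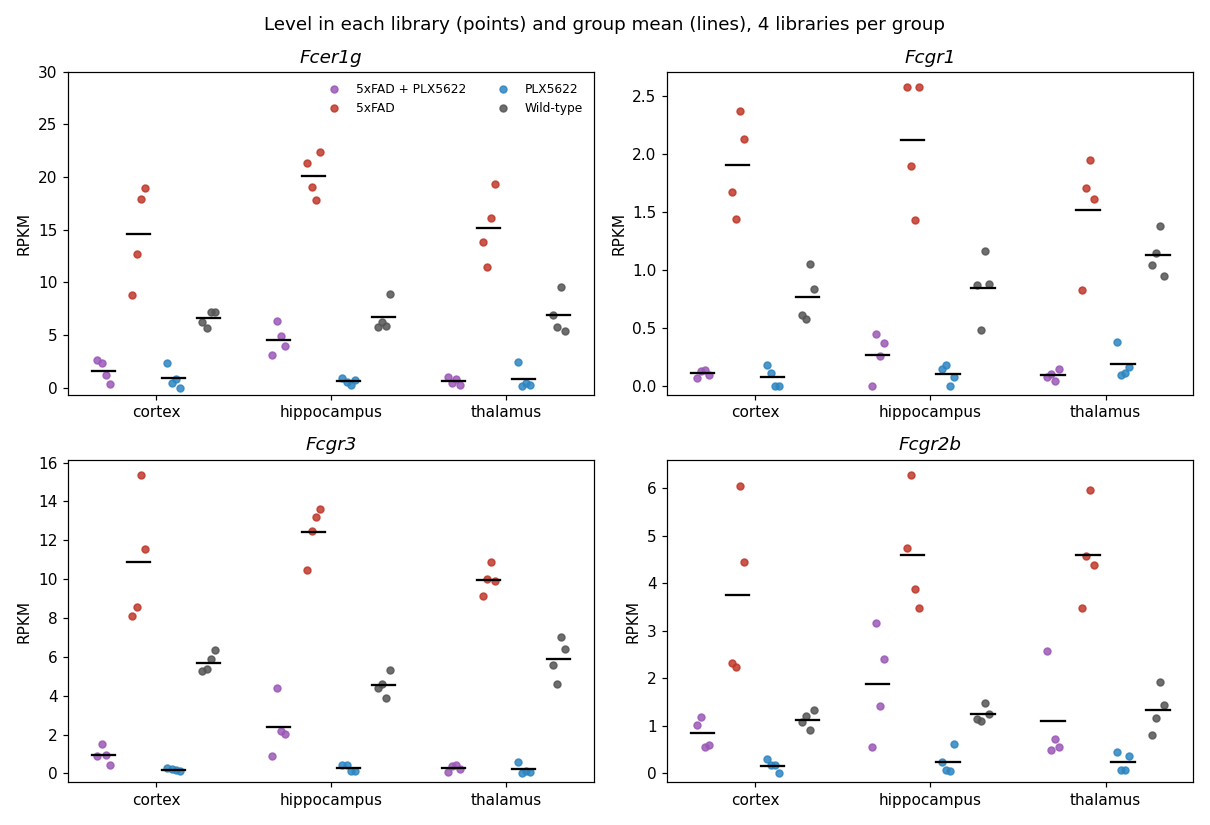
RPKM of Fcer1g, Fcgr1, Fcgr3 and Fcgr2b in each of the 48 libraries, by group and region, on a linear axis that differs between panels. Points are libraries and bars are the means of 4. In every panel and region the mean of the 5xFAD libraries is the highest, and Fcer1g has the highest mean of the 4 genes in every group except 5xFAD + PLX5622 thalamus.

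In wild-type brain the 4 genes kept one order of level per length. Fcer1g had 6.57 ± 0.741 RPKM in cortex, 6.70 ± 1.46 in hippocampus and 6.91 ± 1.88 in thalamus (SD, n = 4 each). Fcgr3 followed at 5.71 ± 0.496, 4.57 ± 0.597 and 5.90 ± 1.05 RPKM. Fcgr2b was far lower at 1.13 ± 0.182, 1.25 ± 0.167 and 1.33 ± 0.472 RPKM. Fcgr1 was lowest at 0.768 ± 0.220, 0.845 ± 0.277 and 1.13 ± 0.183 RPKM. The libraries of Fcer1g and Fcgr3 overlapped in cortex and thalamus and those of Fcgr2b and Fcgr1 in all 3 regions, while Fcgr3 and Fcgr2b were apart in all 3. The same order held in the means of 5xFAD brain.

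Between regions of one genotype no difference was found at this depth. In limma fits across all 15975 genes tested, 0 of 24 comparisons of a member between regions of 5xFAD or of wild-type brain had an adjusted p under 0.05. No unadjusted p was under 0.05 either, the smallest being 0.184, and voom on the recovered reads also called 0. Of all genes tested, 5.36%, 5.49% and 12% were called in either direction in 5xFAD hippocampus against cortex, hippocampus against thalamus and cortex against thalamus, and 4.31%, 11.3% and 18.2% in the same comparisons of wild-type mice. For each member the means of the 3 5xFAD regions were therefore neighbours that did not differ beyond their spread, and so were those of the 3 wild-type regions.

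All 4 genes had higher mean levels in 5xFAD than in wild-type brain in every region. In RPKM the libraries of the 2 groups did not overlap for 11 of the 12 combinations of gene and region, where 3.44% of all genes did not overlap and were higher in cortex, 3.92% in hippocampus and 1.41% in thalamus. Each of these 11 had an exact two-sided permutation p of 0.0286, the smallest that 4 against 4 libraries can give (0.0312 after Benjamini-Hochberg adjustment over the 12). In the limma fit on log2(RPKM + 0.1), a scale that understates changes of low genes, 3 of 4 members passed in hippocampus (1.54% of all genes called higher there), 1 of 4 in thalamus (0.407%) and 0 of 4 in cortex (0.714%). In cortex 3 of the 4 had an unadjusted p under 0.05, and voom on the recovered reads called all 4 in cortex, 4 in hippocampus and 3 in thalamus. RNA came from bulk tissue, so more cells of a type and more RNA per cell cannot be told apart.

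Fcer1g, the signalling chain, was at 8.80, 12.7, 17.9 and 19.0 RPKM in the 4 libraries of 5xFAD cortex, against 6.27, 5.65, 7.19 and 7.15 RPKM in wild-type cortex. In hippocampus it was at 21.3, 19.1, 17.8 and 22.4 RPKM in 5xFAD and 5.76, 6.28, 5.89 and 8.86 RPKM in wild-type mice. In thalamus it was at 13.8, 11.4, 16.1 and 19.4 RPKM in 5xFAD and 6.90, 5.79, 9.57 and 5.38 RPKM in wild-type mice. Every 5xFAD library lay above every wild-type library of its region, with the widest gap in hippocampus. Mean levels in 5xFAD were 222%, 301% and 220% of wild-type in cortex, hippocampus and thalamus. The fitted log2 differences were 1.08, 1.59 and 1.13 (SE 0.583 each), and none passed in limma (adjusted p = 0.363, 0.116 and 0.33). Across the alternatives the adjusted p spanned 0.01005 to 0.999 in cortex, 2.4e-05 to 0.344 in hippocampus and 0.00243 to 1 in thalamus.

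Fcgr1, the high-affinity activating receptor, was at 1.67, 1.44, 2.36 and 2.13 RPKM in 5xFAD cortex, against 0.611, 0.575, 1.05 and 0.836 RPKM in wild-type cortex. In hippocampus it was at 2.58, 1.89, 1.43 and 2.58 RPKM in 5xFAD and 0.866, 0.482, 1.16 and 0.876 RPKM in wild-type mice. In thalamus it was at 0.825, 1.70, 1.94 and 1.61 RPKM in 5xFAD and 1.04, 1.14, 1.37 and 0.949 RPKM in wild-type mice. The groups were apart in cortex and hippocampus, but in thalamus replicate 1 of 5xFAD lay below all 4 wild-type libraries and the groups overlapped (exact permutation p = 0.171). Mean levels in 5xFAD were 247%, 251% and 135% of wild-type. The log2 differences were 1.21 in cortex, 1.25 in hippocampus and 0.35 in thalamus (SE 0.384), and only that in hippocampus passed in limma (adjusted p = 0.0567, 0.0489 and 0.759). The call in hippocampus was close to the threshold and was kept in 23 of 62 alternatives, with adjusted p from 0.000167 to 0.482. The 5xFAD effect on Fcgr1 in hippocampus minus that in thalamus was 0.89 on the log2 scale and did not pass (SE 0.544, limma adjusted p = 0.687).

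Fcgr3, the low-affinity activating receptor, was at 8.09, 8.59, 15.4 and 11.6 RPKM in 5xFAD cortex, against 5.26, 5.36, 5.87 and 6.33 RPKM in wild-type cortex. In hippocampus it was at 10.5, 12.5, 13.2 and 13.6 RPKM in 5xFAD and 4.40, 4.61, 3.91 and 5.35 RPKM in wild-type mice. In thalamus it was at 9.14, 10.02, 10.9 and 9.88 RPKM in 5xFAD and 5.57, 4.60, 7.01 and 6.41 RPKM in wild-type mice. No library of one group reached the other in any region, and the 5xFAD libraries of cortex were the most spread out. Mean levels in 5xFAD were 191%, 273% and 169% of wild-type. The log2 differences were 0.88, 1.43 and 0.76 (SE 0.402), and Fcgr3 rose in hippocampus by limma (adjusted p = 0.0268) but did not pass in cortex (0.248) or thalamus (0.347). The call in hippocampus was kept in 54 of 63 alternatives (adjusted p from 6.65e-06 to 0.221) and was lost without any 1 of 5xFAD hippocampus replicates 2, 3 or 4 or wild-type hippocampus replicates 1 or 3 (0.0517 to 0.0658).

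Fcgr2b, the inhibitory receptor, was at 2.31, 2.24, 6.05 and 4.45 RPKM in 5xFAD cortex, against 1.08, 1.20, 0.910 and 1.34 RPKM in wild-type cortex. In hippocampus it was at 4.75, 6.28, 3.89 and 3.48 RPKM in 5xFAD and 1.15, 1.11, 1.48 and 1.26 RPKM in wild-type mice. In thalamus it was at 3.49, 4.58, 5.96 and 4.39 RPKM in 5xFAD and 0.800, 1.16, 1.92 and 1.45 RPKM in wild-type mice. The lowest 5xFAD library stood above the highest wild-type library in all 3 regions. Mean levels in 5xFAD were 332%, 368% and 346% of wild-type, the highest percentages of the 4 genes in each region. Fcgr2b rose in hippocampus (log2 difference 1.77, SE 0.481, limma adjusted p = 0.0207) and thalamus (1.75, 0.0224) and was just over the threshold in cortex (1.54, 0.0529). Over the alternatives the adjusted p spanned 0.000538 to 0.146 in hippocampus, 0.000676 to 0.315 in thalamus and 0.00413 to 0.358 in cortex. The hippocampal call was lost without 5xFAD hippocampus replicate 2 (0.0675) and the thalamic call without 5xFAD thalamus replicate 3 (0.0685) or wild-type thalamus replicate 1 (0.0736).

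Without the 3 hippocampal libraries with cortex-like markers, Fcgr2b still passed in hippocampus (log2 difference 1.84, limma adjusted p = 0.0303), while Fcgr1 (0.93, 0.153), Fcgr3 (1.39, 0.0602) and Fcer1g (1.52, 0.246) did not. The groups of 3 libraries left in hippocampus did not overlap for any of the 4 genes. Groups of 3 separate more easily than groups of 4, and the share of all genes was not computed for them. No difference of the 5xFAD effect between hippocampus and cortex or thalamus passed for any member. Those comparisons called 0% of all genes each, and 0 of 4 members had an unadjusted p under 0.05 in either, with 0 called by voom.

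**Figure D2:**
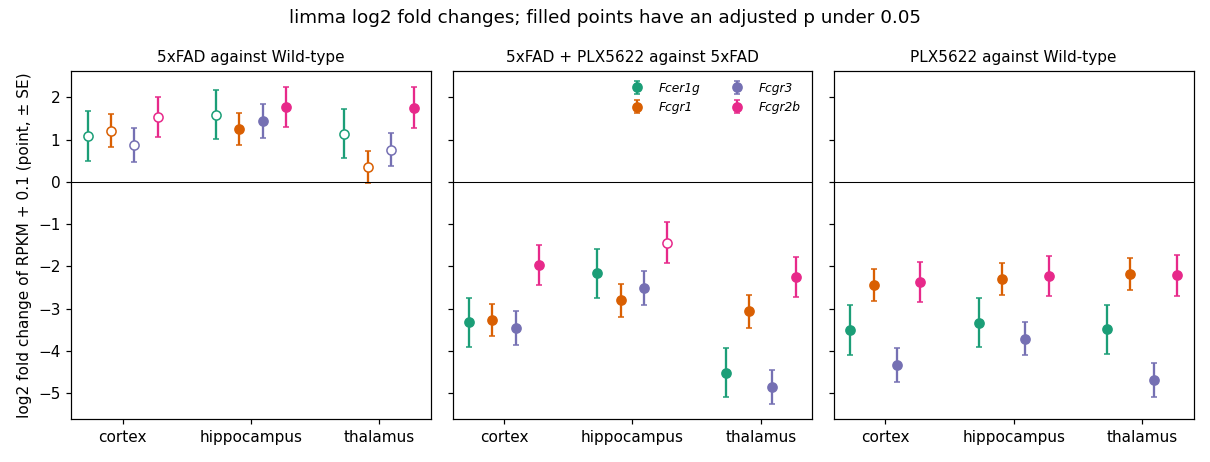
Log2 fold change of each member on the log2(RPKM + 0.1) scale in 5xFAD against wild-type, 5xFAD + PLX5622 against 5xFAD and PLX5622 against wild-type mice, by region. Bars on the points are 1 standard error of the limma fit and filled points had an adjusted p under 0.05. The 5xFAD differences lie between 0.35 and 1.77, and those of the treatment between -4.85 and -1.44.

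Each member was expressed per library relative to the mean log2 level of 11 microglial genes (Tmem119, P2ry12, P2ry13, Cx3cr1, Csf1r, Siglech, Gpr34, Olfml3, Fcrls, Selplg and Sall1). These genes had a median of 148%, 185% and 149% of the wild-type level in 5xFAD cortex, hippocampus and thalamus. Relative to them, Fcgr2b was higher in 5xFAD than in wild-type mice by 0.97, 1.01 and 1.19 on the log2 scale, with no overlap of libraries in any region (exact permutation p = 0.0286 each). Fcgr2b lay between -2.05 and -0.95 in 5xFAD cortex and between -2.75 and -2.45 in wild-type cortex. The differences were 0.51, 0.82 and 0.57 for Fcer1g and 0.31, 0.66 and 0.20 for Fcgr3, and for both the libraries were apart in hippocampus and overlapped in cortex and thalamus. The differences of Fcgr1 were 0.64, 0.48 and -0.21, with overlap in all 3 regions. In all, 5 of 12 combinations did not overlap, and their adjusted p over the 12 was 0.0686, above 0.05. The share of all genes that would not overlap on this scale was not computed.

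**Figure D3:**
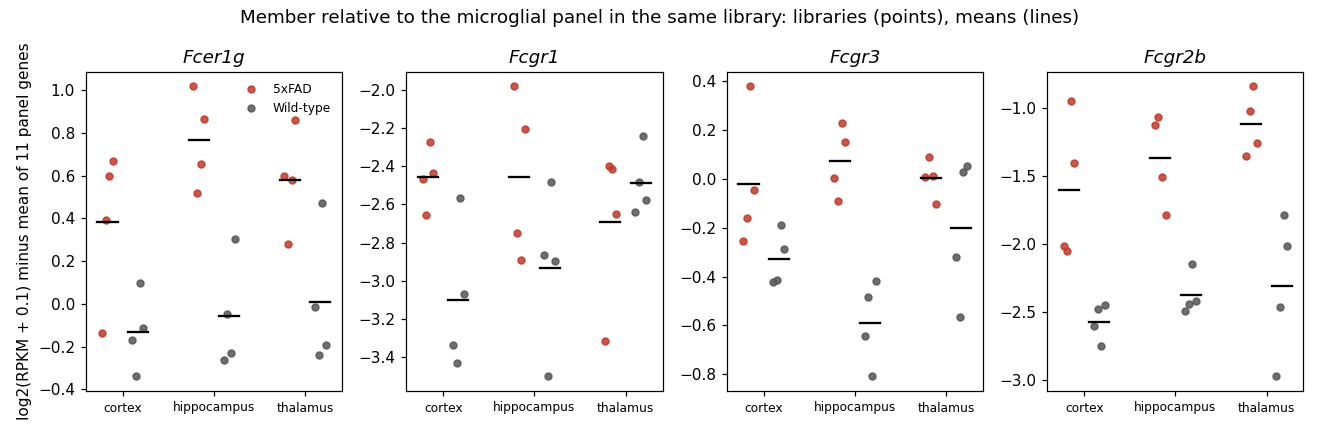
Level of each member relative to 11 microglial genes in each library of untreated mice, as log2(RPKM + 0.1) of the member minus the mean of the panel. Points are libraries and bars are means. For Fcgr2b the 5xFAD libraries lie above the wild-type libraries in all 3 regions, while for Fcgr1 they overlap in all 3.

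PLX5622 lowered all 4 genes in every region of both genotypes by limma, except Fcgr2b in 5xFAD hippocampus, whose difference did not pass. In 5xFAD mice 4 of 4 members were called lower in cortex (2.05% of all genes called lower), 3 of 4 in hippocampus (2.27%) and 4 of 4 in thalamus (2.42%). In wild-type mice 4 of 4 were called lower in cortex (1.34%), hippocampus (2.44%) and thalamus (3.3%). No treated library reached the untreated libraries of its genotype and region in any of the 24 combinations (exact permutation p = 0.0286 each, also after adjustment over the 24). Of all genes, 3.6%, 4.06% and 3.96% did not overlap and were lower in 5xFAD + PLX5622 cortex, hippocampus and thalamus, and 2.84%, 8.32% and 3.46% in the same regions of PLX5622 mice. The microglial panel fell with the members, as did a summed level of 5 border macrophage markers of 8 listed, which was 0.103 to 1.43 RPKM in 5xFAD + PLX5622 libraries against 2.03 to 5.09 RPKM in 5xFAD and 0.0544 to 1.94 RPKM in PLX5622 against 1.22 to 5.62 RPKM in wild-type libraries. The parts of these cell types in the members' levels were not tested.

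Fcer1g was at 2.64, 2.30, 1.20 and 0.351 RPKM in 5xFAD + PLX5622 cortex, 3.08, 6.28, 4.86 and 3.92 RPKM in hippocampus and 1.01, 0.393, 0.775 and 0.282 RPKM in thalamus. In the PLX5622 group it was at 2.32, 0.431, 0.794 and 0 RPKM in cortex, 0.889, 0.518, 0.280 and 0.728 RPKM in hippocampus and 2.42, 0.188, 0.444 and 0.250 RPKM in thalamus. The treated hippocampus of 5xFAD mice thus held the highest treated levels, and replicate 1 was the highest PLX5622 library in each region. The level left was 11.1%, 22.5% and 4.05% of the 5xFAD mean and 13.5%, 9.01% and 11.9% of the wild-type mean, in cortex, hippocampus and thalamus. Without PLX5622 replicate 1, the level left in wild-type mice was 6.22% in cortex and 4.26% in thalamus. Fcer1g fell in all 6 comparisons by limma, least in 5xFAD hippocampus (log2 difference -2.17, SE 0.583, adjusted p = 0.0193). That call was lost without replicate 1 of 5xFAD + PLX5622 hippocampus (0.0537), without replicates 3 and 4 with their liver transcripts (0.078), without the 3 cortex-like libraries (0.0978) and with a pseudocount of 0.01 (0.139). The other 59 of its 63 alternatives kept it, with adjusted p down to 2.2e-06.

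Fcgr1 was at 0.0671, 0.130, 0.135 and 0.0892 RPKM in 5xFAD + PLX5622 cortex, 0, 0.446, 0.256 and 0.369 RPKM in hippocampus and 0.0735, 0.0999, 0.0394 and 0.143 RPKM in thalamus. In the PLX5622 group it was at 0.181, 0.110, 0 and 0 RPKM in cortex, 0.141, 0.175, 0 and 0.0740 RPKM in hippocampus and 0.374, 0.0955, 0.113 and 0.159 RPKM in thalamus. A value of 0 stands for no read. These levels rest on few reads, with sums over 4 libraries of 10, 28 and 12 reads in 5xFAD + PLX5622 and 6, 11 and 24 reads in PLX5622 cortex, hippocampus and thalamus. The level left was 5.55%, 12.6% and 5.86% in 5xFAD and 9.47%, 11.6% and 16.5% in wild-type mice. Without PLX5622 replicate 1 it was 4.76% in wild-type cortex and 10.9% in wild-type thalamus. In 5xFAD hippocampus it was 18.1% without the 3 cortex-like libraries and 10.5% without replicates 3 and 4 of 5xFAD + PLX5622. The log2 differences were -3.27, -2.81 and -3.07 in 5xFAD and -2.44, -2.31 and -2.18 in wild-type mice (SE 0.384), and all passed in limma (largest adjusted p 0.000218).

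Fcgr3 was at 0.899, 1.49, 0.970 and 0.427 RPKM in 5xFAD + PLX5622 cortex, 0.920, 4.40, 2.20 and 2.05 RPKM in hippocampus and 0.0703, 0.382, 0.452 and 0.228 RPKM in thalamus. In the PLX5622 group it was at 0.260, 0.210, 0.193 and 0.111 RPKM in cortex, 0.432, 0.420, 0.136 and 0.142 RPKM in hippocampus and 0.614, 0, 0.144 and 0.0609 RPKM in thalamus. In hippocampus all 4 5xFAD + PLX5622 libraries lay above all 4 PLX5622 libraries, with replicate 2 the highest. The level left was 8.69%, 19.2% and 2.84% in 5xFAD and 3.39%, 6.19% and 3.47% in wild-type mice, the lowest of the 4 genes in every region of wild-type mice and in 5xFAD thalamus. Without PLX5622 replicate 1 it was 1.16% in wild-type thalamus, and without 5xFAD + PLX5622 replicate 1 it was 3.55% in 5xFAD thalamus, above the 3.18% of Fcer1g. In 5xFAD hippocampus it was 23.9% without the 3 cortex-like libraries and 21.4% without replicates 3 and 4 of 5xFAD + PLX5622. The log2 differences were -3.45, -2.52 and -4.85 in 5xFAD and -4.33, -3.71 and -4.69 in wild-type mice (SE 0.402), and all passed in limma (largest adjusted p 5.08e-05).

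Fcgr2b was at 1.01, 1.20, 0.565 and 0.597 RPKM in 5xFAD + PLX5622 cortex, 0.553, 3.17, 1.43 and 2.41 RPKM in hippocampus and 2.58, 0.502, 0.725 and 0.559 RPKM in thalamus. In the PLX5622 group it was at 0.303, 0.183, 0.169 and 0 RPKM in cortex, 0.236, 0.0734, 0.0595 and 0.619 RPKM in hippocampus and 0.447, 0.0799, 0.0630 and 0.373 RPKM in thalamus. Replicate 1 of 5xFAD + PLX5622 thalamus stood apart from the other 3 libraries of its group. The level left was 22.4%, 41.1% and 23.7% in 5xFAD mice, and 14.5%, 19.8% and 18.1% in wild-type mice, in each case the highest mean of the 4 genes. Without replicate 1 the level left in 5xFAD thalamus was 12.9%, still the highest of the 4. In wild-type mice the order hung on single libraries. Without PLX5622 replicate 4 Fcgr2b was at 9.86% in hippocampus against 12.5% for Fcgr1, and at 14.8% in thalamus against 17.3% for Fcgr1. Without wild-type replicate 1 it was at 15.98% in thalamus against 16.1% for Fcgr1, and in cortex Fcer1g was above it without PLX5622 replicate 2 or wild-type replicate 3. These levels too rest on few reads, 8, 17 and 19 for Fcgr2b and 8, 17 and 15 for Fcgr3 over the 4 libraries of PLX5622 cortex, hippocampus and thalamus. Fcgr2b fell in 5xFAD cortex (log2 difference -1.97, limma adjusted p = 0.0087) and thalamus (-2.26, 0.00232), and its difference of -1.44 in hippocampus did not pass (0.0755, SE 0.481). That difference passed without replicate 2 of 5xFAD + PLX5622 hippocampus, the highest library (-1.76, 0.0336), and in 4 of 63 alternatives in all (0.00392 to 0.319). Without the 3 cortex-like libraries the difference in 5xFAD hippocampus was -1.10 (limma adjusted p = 0.284), with 46.9% left. Without replicates 3 and 4 of 5xFAD + PLX5622 it was -1.65 (0.107), with 40.5% left. In wild-type mice Fcgr2b fell in all 3 regions (-2.38, -2.23 and -2.22, largest limma adjusted p 0.00279).

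**Figure D4:**
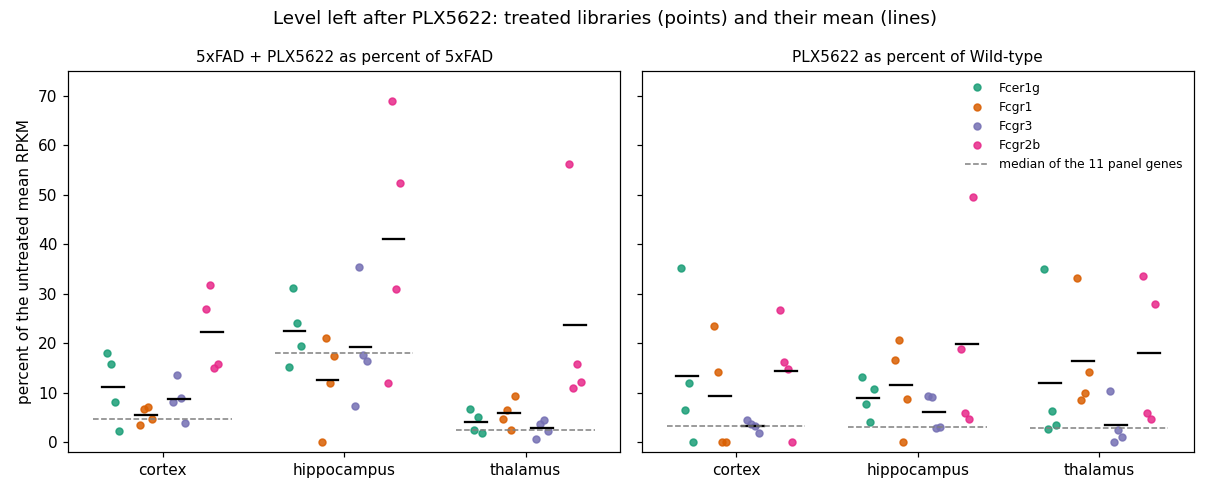
Level left after PLX5622 for each member, as percent of the mean RPKM of the matching untreated group, on a linear axis. Points are treated libraries, bars are their means, and the dashed line is the median of the 11 genes of the microglial panel. Fcgr2b has the highest mean percentages in 5xFAD mice, 22.4%, 41.1% and 23.7% in cortex, hippocampus and thalamus.

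The microglial panel kept a median of 4.72%, 17.96% and 2.59% in 5xFAD cortex, hippocampus and thalamus, and of 3.26%, 3.19% and 2.88% in wild-type mice. Single genes of the panel kept 0.741% to 69.9%. The means of the members were above the median except that of Fcgr1 in 5xFAD hippocampus, but some by small margins. With the median taken over the same libraries, Fcgr3 was below it without PLX5622 replicate 2 or 3 in wild-type cortex and without PLX5622 replicate 1 or wild-type replicate 2 in thalamus, and Fcgr1 without 5xFAD + PLX5622 replicate 3 in 5xFAD cortex. A treatment effect that differed between genotypes was not found for any member. Of the 3 comparisons of the effect in 5xFAD minus that in wild-type mice, cortex called 0% of all genes, hippocampus 0.332% and thalamus 0.00626%, and 0 of 4 members in each. In hippocampus the unadjusted p of 1 member, Fcgr3, was under 0.05, and voom called 0 members in all 3 regions.

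Between regions of 5xFAD mice, the treatment effect on Fcgr3 was smaller in hippocampus than in thalamus, by 2.33 on the log2 scale (SE 0.568, limma adjusted p = 0.0378, where 0.676% of all genes were called in either direction). Fcgr3 was the 1 member of 4 called there, and voom called 2. In 5xFAD + PLX5622 thalamus Fcgr3 rests on 18 reads over the 4 libraries. The difference was called in 44 of 59 alternatives, with adjusted p from 0.0125 to 0.156 and values from 1.03 to 2.78. It was lost with either other pseudocount (0.155 and 0.0641), without both libraries with liver transcripts (2.31, 0.0603) and without any 1 of 12 libraries (0.0535 to 0.135), and it was kept without the cortex-like libraries (2.74, 0.0219). The 12 were 5xFAD + PLX5622 hippocampus replicates 2, 3 and 4, 5xFAD + PLX5622 thalamus replicates 1, 2 and 4, 5xFAD hippocampus replicates 1, 2 and 3 and 5xFAD thalamus replicates 1, 3 and 4. The same difference was 2.35 for Fcer1g (SE 0.824, adjusted p = 0.193), 0.82 for Fcgr2b and 0.26 for Fcgr1. Hippocampus minus cortex called 0% of all genes and 0 of 4 members, 0 of them also at an unadjusted p under 0.05 and by voom.

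Among treated mice, 5xFAD + PLX5622 hippocampus had higher Fcer1g, Fcgr2b and Fcgr3 than PLX5622 hippocampus, 3 of 4 members (0.764% of all genes called higher). The log2 differences were 2.76 for Fcer1g (SE 0.583, limma adjusted p = 0.00614), 2.56 for Fcgr2b (0.00119) and 2.62 for Fcgr3 (4.67e-05), while that of Fcgr1 was 0.74 (0.494). The summed microglial panel was also higher, at 15.02 to 53.5 RPKM in 5xFAD + PLX5622 and 6.23 to 12.2 RPKM in PLX5622 hippocampus, and its part in these differences was not tested. Voom on the recovered reads called 2 of the 4, without Fcgr2b (adjusted p = 0.0893, its range over 59 alternatives being 9.2e-05 to 0.0893). Fcer1g and Fcgr3 did not overlap between these groups (2.59% of all genes did not overlap and were higher), and Fcgr2b did through replicate 1 of 5xFAD + PLX5622 and replicate 4 of PLX5622. Fcgr2b had its highest value of 5xFAD + PLX5622 hippocampus in replicate 2, where Alb was 3.34 RPKM. In PLX5622 hippocampus its highest value was in replicate 4, where Alb was 39.4 RPKM, the most of that group. The part of liver transcripts in these levels was not tested. Without replicates 3 and 4 of 5xFAD + PLX5622, the libraries with liver transcripts, the values were 2.77 for Fcer1g (0.0636), 2.35 for Fcgr2b (0.0473) and 2.60 for Fcgr3 (0.00335). Without the 3 cortex-like libraries all 4 members passed, Fcgr1 included (1.29, 0.0462).

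In cortex and thalamus 0 of 4 members were called higher in 5xFAD + PLX5622 than in PLX5622 mice (0.0626% and 0.0313% of all genes), with 3 and 1 of 4 at an unadjusted p under 0.05 and 0 called by voom in both. The 2 receptors with the largest values in cortex were Fcgr2b (1.94, adjusted p = 0.176) and Fcgr3 (1.76, 0.0849), whose libraries did not overlap (3.25% of all genes). In thalamus Fcgr2b did not overlap either (1.71, 0.171, and 2.94% of all genes). Within 5xFAD + PLX5622 mice, hippocampus had higher Fcer1g (2.78, adjusted p = 0.000316) and Fcgr3 (2.64, 2.59e-06) than thalamus, 2 of 4 members where 13.8% of all genes were called higher. Against cortex 0 of 4 passed where 5.42% of all genes did, with 2 of 4 at an unadjusted p under 0.05 and 0 by voom, and the values were 1.68 for Fcer1g (0.0653) and 1.17 for Fcgr3 (0.0636).

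Set against untreated wild-type mice, Fcgr2b in the treated 5xFAD brain did not differ beyond the spread, while Fcer1g, Fcgr1 and Fcgr3 were lower in cortex and thalamus. Fcgr2b was at 74.4%, 151% and 82.1% of the wild-type mean in 5xFAD + PLX5622 cortex, hippocampus and thalamus, and its log2 differences of -0.43, 0.33 and -0.50 did not pass (SE 0.481, limma adjusted p = 1, 0.953 and 0.755). This does not show equal levels, as the treated libraries spanned 49.9% to 106%, 44.3% to 254% and 37.7% to 194% of the wild-type mean. Without replicate 1 of 5xFAD + PLX5622 the mean in thalamus was 44.8%. Fcer1g, Fcgr1 and Fcgr3 were called lower in cortex (3 of 4 members, 0.883% of all genes) and thalamus (3 of 4, 1.57%), and Fcgr1 alone in hippocampus (1 of 4, 0.344%). Fcgr1 was at 13.7%, 31.7% and 7.91% of wild-type, Fcgr3 at 16.6%, 52.4% and 4.81%, and Fcer1g at 24.7%, 67.7% and 8.91%. The call of Fcer1g in cortex (-2.24, 0.0415) was kept in 49 of 59 alternatives (0.000639 to 0.374). It was lost without replicate 3 or 4 of 5xFAD + PLX5622 cortex or any 1 wild-type cortex library (0.083 to 0.353). The call of Fcgr1 in hippocampus (-1.56, 0.0305) was lost without the cortex-like libraries (-1.23, 0.111).

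The balance of activating to inhibitory receptor was then compared within libraries, as the difference in log2(RPKM + 0.1). Fcgr3 minus Fcgr2b was lower in 5xFAD than in wild-type mice by 0.66 in cortex and 0.99 in thalamus without overlap (exact permutation p = 0.0286 each, 0.0429 adjusted over 12), and the difference was -0.34 in hippocampus with overlap (exact permutation p = 0.2). In cortex the libraries lay at 1.33 to 1.89 in 5xFAD and 2.07 to 2.56 in wild-type mice, and in thalamus at 0.86 to 1.36 in 5xFAD and 1.82 to 2.65 in wild-type mice. Every one of the untreated libraries still had more Fcgr3 than Fcgr2b. Fcgr1 minus Fcgr2b was lower in 5xFAD thalamus by 1.40 without overlap, and its differences of -0.32 in cortex and -0.53 in hippocampus overlapped (exact permutation p = 0.4 and 0.2).

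The balance also differed between treated and untreated 5xFAD mice. Fcgr3 minus Fcgr2b was lower in 5xFAD + PLX5622 than in 5xFAD mice by 1.48 in cortex, 1.08 in hippocampus and 2.59 in thalamus, without overlap in any (exact permutation p = 0.0286 each). Fcgr1 minus Fcgr2b was lower by 1.30 and 1.37 in cortex and hippocampus without overlap, and its difference of -0.81 in thalamus overlapped (exact permutation p = 0.2). In 5xFAD + PLX5622 thalamus Fcgr2b was above Fcgr3 in all 4 libraries, against 0 of 4 in 5xFAD thalamus. The treated values rest on few reads, 1, 6, 6 and 5 for Fcgr3 and 42, 9, 11 and 14 for Fcgr2b. As a ratio of mean RPKM, Fcgr3 was 1.12, 1.27 and 0.259 times Fcgr2b in 5xFAD + PLX5622 and 2.90, 2.71 and 2.17 times in 5xFAD cortex, hippocampus and thalamus. The same ratios were 1.18, 1.14 and 0.850 in PLX5622 and 5.04, 3.66 and 4.43 in wild-type mice. Single libraries moved the ratios of treated mice, to 0.595 in 5xFAD + PLX5622 thalamus without replicate 1, to 2.68 in PLX5622 hippocampus without replicate 4, and to 0.397 or 1.28 in PLX5622 thalamus without replicate 1 or 4. In total, 8 of the 12 tests had no overlap, and 5 with a pseudocount of 1 in place of 0.1, a choice that bears most on the low treated levels. No share over all genes was computed for these differences.

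**Figure D5:**
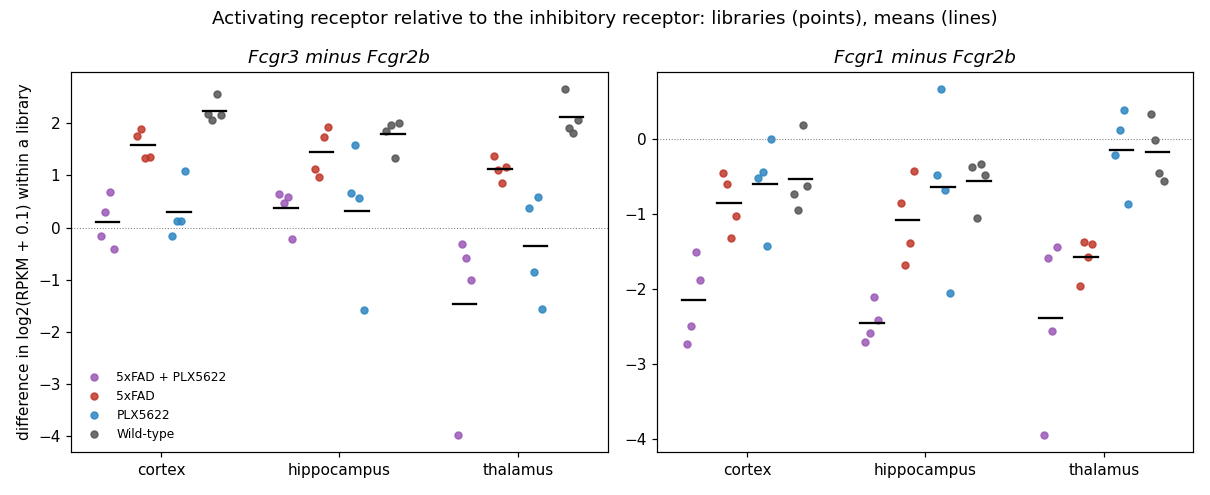
Difference in log2(RPKM + 0.1) between an activating receptor and the inhibitory receptor Fcgr2b in each library, by group and region. Points are libraries, bars are means and the line at 0 marks equal levels. Fcgr3 minus Fcgr2b is above 0 in every untreated library and below 0 in all 4 libraries of 5xFAD + PLX5622 thalamus.

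The genes whose pattern was most like that of a member were found from the mean log2(RPKM + 0.1) of the 12 groups, among 14480 genes. The points share the treatment, which dominates them, so the correlations are descriptions. For Fcer1g they were Cd37 (r = 0.997), Laptm5 (0.996) and Spi1 (0.995), the last encoding PU.1. For Fcgr3 they were Gpr34, Cx3cr1 and Csf1r (0.994 to 0.996), all 3 of the microglial panel. For Fcgr1 they were Lyl1 (0.992), Tmem173, which encodes STING, and Gna15, the lowest at 0.987. Those of Fcgr2b were less close, with Clic1 at 0.966, the ITAM adaptor Tyrobp at 0.963 and the macrophage gene Mpeg1 at 0.960. Between the members themselves r over the 12 groups was highest for Fcer1g with Fcgr3 (0.992) and lowest for Fcgr1 with Fcgr2b (0.839). Within groups, over the 48 libraries after removing group means, it was 0.629 for Fcer1g with Fcgr2b and 0.305 for Fcgr2b with Fcgr3.

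Downstream of the ITAM, the kinases, adaptors and enzymes of Fc receptor signalling followed the receptors in part. Of 25 measured genes of 26 listed, 7 rose in 5xFAD hippocampus (1.54% of all genes), 1 in cortex (0.714%) and 0 in thalamus (0.407%), where 5 had an unadjusted p under 0.05 and voom called 2. The gene in cortex was the adaptor Sh3bp2, which is named here after its value was seen. The list median was 0.52, 0.62 and 0.31 in cortex, hippocampus and thalamus on the log2 scale, against 0.000726, -0.00712 and -0.000531 for all genes tested. In hippocampus the smallest p-values belonged to the adaptors Lat2 (1.37, limma adjusted p = 0.000337) and Lcp2 (1.02, 0.0056), the lipid kinase Pik3cg (0.92, 0.0201) and the exchange factor Vav1 (1.09, 0.0219). PLX5622 lowered 14 of the 25 in each region of 5xFAD mice (2.05%, 2.27% and 2.42% of all genes in cortex, hippocampus and thalamus). In wild-type mice it lowered 14, 12 and 12 in the same regions (1.34%, 2.44% and 3.3%). The kinase Fyn, also named after its value was seen, was the 1 gene higher in PLX5622 than in wild-type hippocampus (0.332% of all genes). Those lowered in 5xFAD hippocampus included Pik3cg (-2.08), Dock2, an activator of Rac (-1.99), Vav1 (-1.90) and Lcp2 (-1.55). The list median there was -1.14, against 0.0168 for all genes tested.

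Of the 10 brakes on this pathway, 2 rose in 5xFAD hippocampus (1.54% of all genes). They were Ptpn6 (1.47, limma adjusted p = 0.00202), which encodes the phosphatase SHP-1, and Inpp5d (0.90, 0.00918), which encodes SHIP1, the lipid phosphatase that Fcgr2b recruits. In cortex and thalamus 0 of 10 passed, with 2 at an unadjusted p under 0.05 and 2 called by voom in each. The same 2 genes, and no other of the 10, fell after PLX5622 in all 3 regions of both genotypes. Of all genes, 2.05%, 2.27% and 2.42% were called lower in 5xFAD cortex, hippocampus and thalamus, and 1.34%, 2.44% and 3.3% in wild-type mice. In 5xFAD hippocampus the fall was 1.85 for Inpp5d and 1.79 for Ptpn6 on the log2 scale. Among the others, Csk (0.17, 0.466) and Ptpn11 (0.15, 0.254) did not pass in 5xFAD hippocampus.

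Some of the other receptors and adaptors with activating motifs were called too. Of 7 measured of 25 listed, 3, 3 and 2 rose in 5xFAD cortex, hippocampus and thalamus, where 0.714%, 1.54% and 0.407% of all genes were called higher. In hippocampus they were Clec7a (4.64, limma adjusted p = 2.85e-07), a lectin receptor with a motif in its own tail, Trem2 (2.34, 0.00461) and its adaptor Tyrobp (2.31, 0.0348). After PLX5622, 6, 5 and 6 of the 7 fell in 5xFAD mice (2.05%, 2.27% and 2.42% of all genes called lower) and 5, 5 and 5 in wild-type mice (1.34%, 2.44% and 3.3%), among them Siglech (-3.03 in 5xFAD hippocampus) and Clec5a (-1.53). Of 11 measured ITIM receptors of 16 listed, 4, 3 and 2 rose in 5xFAD mice, against the same shares of all genes, in hippocampus Siglecf (1.81), Lilrb4a (2.22) and Lair1 (0.98). PLX5622 lowered 7, 5 and 8 of them in 5xFAD mice and 3, 4 and 4 in wild-type mice, against the shares of all genes called lower given above. Among them were Cd33 (-2.25) and Siglece (-1.23) in 5xFAD hippocampus. 

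Of 13 other Fc receptors listed, 4 were measured. None passed in 5xFAD against wild-type mice by limma in any region, with 0 at an unadjusted p under 0.05, and voom called 1, in hippocampus. Fcgrt, the neonatal Fc receptor that carries IgG across cells, had log2 differences of -0.01 (5xFAD) and -0.30 (5xFAD + PLX5622 against 5xFAD) in hippocampus, and the cytosolic antibody receptor Trim21 had 0.11 and -0.14. Fcrls, a microglial gene of the Fc receptor-like family, was the 1 gene lowered by PLX5622 in each region and genotype (-2.57 in 5xFAD hippocampus, limma adjusted p = 0.00776). Of all genes, 1.34% to 3.3% were called lower in these comparisons. The ligand side gave little signal between 5xFAD and wild-type mice. Of 13 immunoglobulin chain genes 4 were measured (Ighm, Igkc, Ighg2c and Jchain), and 0 passed in 5xFAD against wild-type mice, with 0 at an unadjusted p under 0.05 and 0 by voom in every region. In 5xFAD hippocampus Igkc differed from wild-type by 0.38 with an SE of 1.12, so changes of this size were not detectable. The heavy chain Ighm was the 1 call in the treatment comparisons, lower in 5xFAD + PLX5622 than in 5xFAD thalamus (2.42% of all genes), which voom did not make. At an unadjusted p under 0.05, 1 of the 4 was higher in PLX5622 than in wild-type cortex and in hippocampus, and 0 passed. Igkc was at 3.27 ± 2.49 RPKM in PLX5622 and 0.569 ± 0.706 in wild-type cortex. In hippocampus it was at 2.90 ± 1.47 and 0.383 ± 0.437 RPKM (SD, n = 4 each). In 5xFAD + PLX5622 against 5xFAD hippocampus 1 of the 4 was also higher at an unadjusted p under 0.05.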

How the data were processed

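RNA was sequenced from cortex, hippocampus and thalamus of mice of 4 groups, 4 libraries per group and region, with 50-base single-end reads. The deposited table holds RPKM values per gene, which the authors made by aligning to mm10 with STAR, counting with featureCounts, filtering genes of low count and scaling in edgeR. The submitters' processing notes also name limma, and no versions are given in the sources used here. The labels name a TruSeq kit and the study's methods a ribosomal depletion kit, and which one made these libraries was not settled. For 172 genes the symbol was restored from the Entrez number, 24 of them date-like. All 48 columns matched a sample.

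Of 16014 genes, 15975 with at least 0.2 RPKM in at least 4 libraries were tested on log2(RPKM + 0.1) with limma 3.58.1 (R 4.3.3), in one fit of 12 group means with a variance trend. Benjamini-Hochberg adjustment ran over the 15 comparisons of the study together, and over each of 15 further comparisons alone. Calls have an adjusted p under 0.05. RPKM values stepped in whole reads for all 16014 genes within 0.05 reads, so voom on the recovered reads was an alternative. It called 141, 417 and 107 genes in 5xFAD against wild-type cortex, hippocampus and thalamus, where the fit on RPKM called 117, 313 and 66. In 5xFAD + PLX5622 against 5xFAD mice it called 310, 515 and 442 genes against 340, 473 and 441.

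Exact two-sided permutation tests over libraries were used for single values; those of 5xFAD and of treated 5xFAD mice in RPKM were added after the data were seen. Other alternatives were pseudocounts of 0.01 and 1, other filters, rescaling, fits of subsets, other variance models, a replicate block, and leaving out each library or those that stood apart. The limma fit was tested in R on simulated data, with normal noise around the overall mean of each gene. That setting does not cover the low levels of the treated libraries. The other steps and figures used Python 3.11.15 with numpy 2.4.6, pandas 2.3.3 and matplotlib 3.10.9. Per the study's methods, replicates were biologically independent. The labels do not tie libraries to animals across regions.

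The members and gene lists were chosen with earlier results of these data known. Named genes are the members, up to 4 genes of each list with the smallest p in 5xFAD against wild-type hippocampus and up to 4 in 5xFAD + PLX5622 against 5xFAD hippocampus, the 3 genes most like each member over the 12 groups among genes with a mean of at least 1 RPKM in a group, and markers that moved with a member. Genes named outside this rule are said to be so. Results that need certain genes are not reported here, and the microglial panel, 1 gene larger as first set, was computed over the remaining 11.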

Additional observations from a re-analysis of the deposited data

Results flagged for a closer look

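In 48 sets of 4 libraries, 1 for each member and group, the highest or lowest library was compared with the rest by Dixon's criterion, which chance meets in about 1 of 20 sets, and 3 libraries met it. Fcgr2b was at 2.58 RPKM in replicate 1 of 5xFAD + PLX5622 thalamus, far above the other 3 libraries of that group. Fcer1g was at 2.42 RPKM in replicate 1 of PLX5622 thalamus, where the summed border macrophage markers were 1.94 RPKM and those of the microglial panel 18.7 RPKM, both the highest of the PLX5622 libraries. Fcer1g was at 8.86 RPKM in replicate 4 of wild-type hippocampus.

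The effect of PLX5622 on Fcgr3 in 5xFAD mice differed between regions, by 2.33 on the log2 scale between hippocampus and thalamus in a test of the difference itself (SE 0.568, limma adjusted p = 0.0378, range over 59 alternatives 0.0125 to 0.156). It did not pass without both 5xFAD + PLX5622 hippocampal libraries with liver transcripts (2.31, 0.0603), with a pseudocount of 0.01 (0.155) or 1 (0.0641), or without any 1 of 12 libraries (0.0535 to 0.135). Fcgr3 rests on 134 reads over the 4 libraries of 5xFAD + PLX5622 hippocampus and on 18 reads over those of thalamus. The summed microglial panel was 15.02 to 53.5 RPKM in 5xFAD + PLX5622 hippocampus and 8.34 to 14.0 RPKM in 5xFAD + PLX5622 thalamus, and its part in this difference was not tested.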

How the results depend on the processing

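The count of members called in 5xFAD against wild-type mice depended most on the processing. It was 4 of 12 combinations of gene and region, but 0 with a pseudocount of 0.01 or with each comparison adjusted by itself, 1 with each region fitted alone, and 11 with a pseudocount of 1, with vooma weights or with voom on the recovered reads. Without 1 library at a time it was 1 to 6. Of the 28 differences of effects 1 was called, 0 with either other pseudocount or without the libraries with liver transcripts, 2 with voom, and 0 to 1 without 1 library. The 8 of 12 activating against inhibitory tests without overlap became 5 with a pseudocount of 1 and stayed at 8 to 8 without 1 library. Without 1 library, members called were 10 to 12 of 12 for 5xFAD + PLX5622 against 5xFAD (11 with all), 12 to 12 for PLX5622 against wild-type, 0 to 0 between regions and 11 to 16 for treated 5xFAD mice (12 with all). The median level left was 10.7% to 12.3%, and 5 to 7 of 12 combinations of gene and region did not overlap relative to the microglial panel (5 with all). Fcer1g in 5xFAD + PLX5622 against PLX5622 thalamus, 0.10 on the log2 scale and not called, turned to -0.0503 with a pseudocount of 1 and -0.15 with voom. Leaving out 1 library gave -0.26 to 0.78, below 0 without replicate 1 (-0.15) or 3 (-0.04) of 5xFAD + PLX5622 or 2 (-0.26) or 4 (-0.16) of PLX5622 thalamus. Of 4139 alternative values of single members, 3970 kept direction and call, 90 lost a call, 73 gained one and 6 turned. The causes were not tested.

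Same-numbered libraries did not all deviate together between groups of a region. The lowest correlation in each comparison was -0.449 to -0.0391 and the highest 0.0241 to 0.666. The main fit therefore did not pair them by number, though these values cannot exclude pairing. Between regions of a group all correlations were above 0 in PLX5622 hippocampus and thalamus (0.11 to 0.371) and, barely, in 5xFAD + PLX5622 cortex and thalamus (0.00651 to 0.0725). No comparison sets these regions of these groups against each other. The lowest correlation of the other pairs of regions was -0.281 to -0.00145. With the replicate block, 3 of 12 were called in 5xFAD against wild-type mice, 11 of 12 in 5xFAD + PLX5622 against 5xFAD and 12 of 12 in PLX5622 against wild-type mice.

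After PLX5622, Fcgr1 rests on 6 to 28 reads per group. In PLX5622 mice Fcgr2b rests on 8 to 19, Fcgr3 on 8 to 17 and Fcer1g on 18 to 29. In 5xFAD + PLX5622 thalamus Fcer1g and Fcgr3 rest on 18 reads each. These low numbers limit the values. Kits, libraries per animal and tissue cut are not settled by the labels.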
